A study of Sus scrofa with 6 samples.

Results

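The enzymes of glycolysis in the wall of the abdominal aorta were followed through 10 listed gene symbols, which cover uptake of glucose to formation of lactate. A gene entered when the symbol in the deposited gene table equalled one on the list, and 8 of the 10 symbols were found in this way, in 9 of the table's 22861 gene entries. They were HK1, HK2, PFKP, PFKL, GAPDH, PGK1, ENO1 and LDHA. SLC2A1, the main basal glucose transporter, and ALDOA, the muscle-type aldolase, were dropped under that rule and are not analysed here. GAPDH had a further entry, ENSSSCG00000012579, which held 0 counts in all 6 pools, so 8 entries could be tested and all 8 passed the filter on low counts.

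The lesion group was aorta with atherosclerotic lesions from WMS FH swine (Wisconsin Miniature Swine, a breed for research, with familial hypercholesterolaemia), and it was set against lesion-free aorta from WMS normal swine. Each group had RNA from 11 animals combined into 3 pools, numbered 1 to 3 for lesion and 4 to 6 for lesion-free aorta. Which animals went into a pool, and their sex, age and diet, are not given in the labels, and lesion status cannot be told apart from swine line. The pool is the unit of replication, so each p-value measures the spread between pools and not between animals. Totals ran from 4650176 counts in lesion pool 1 to 11442433 in lesion pool 3, and 3 counts equal 0.577 CPM (counts per 1000000 counts of the scaled library) in lesion pool 1 and 0.268 to 0.36 CPM in the other pools. Smooth muscle markers fitted the tissue label, with a summed level of 34329 to 47259 CPM in lesion pools and 72586 to 82581 CPM in lesion-free pools. In such bulk tissue fewer cells of a type and less RNA per cell cannot be told apart.

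Glycolysis turns glucose into pyruvate in the cytosol. Hexokinases trap glucose in the cell, phosphofructokinase sets the committed step, and the lower steps yield ATP and pyruvate, which lactate dehydrogenase can reduce to lactate. Arterial smooth muscle is known for forming lactate even when oxygen is plentiful, and activated macrophages are known for a high use of glucose. Several steps are run by isozymes, that is, products of different genes with the same reaction but different control.

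No glycolytic enzyme passed the test, and at 4 of them the lesion pools all lay above the lesion-free pools. Of the 8 enzymes, 0 passed an adjusted p of 0.05 in limma in either direction, where 0.968% of the 11673 genes tested were called higher and 0.0771% lower in lesion pools. At an unadjusted p under 0.05, 2 of the 8 were higher (HK2 and PFKL) and 0 lower, against 6.49% and 4.15% of all genes tested. In 4 of the 8 (HK2, PFKL, ENO1 and LDHA) every lesion pool lay above every lesion-free pool, which was so for 10.5% of all genes tested, and in 0 of the 8 was it the other way round, against 8.97%. The median log2 fold of the 8, lesion over lesion-free, was 0.36, and that of all genes tested was -0.00. All p-values below are from limma with Benjamini-Hochberg adjustment over all genes tested, unless another test is named, and the 95% intervals are unadjusted.

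**Figure D1:**
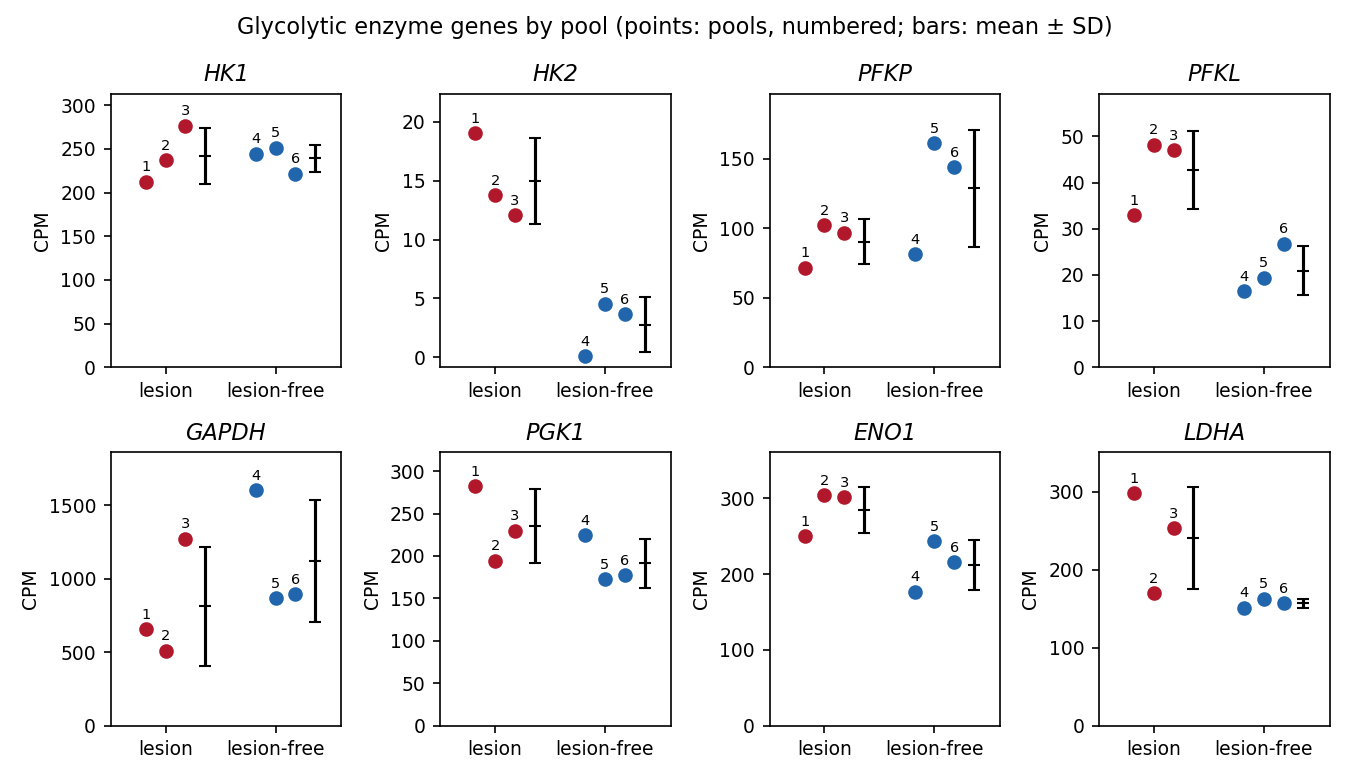
Level of each glycolytic enzyme gene in CPM (vertical axes, from about 0) in the 3 lesion pools and the 3 lesion-free pools. Points are numbered pools and the bars beside them the mean ± SD (n = 3 each), with every lesion pool above every lesion-free pool in HK2, PFKL, ENO1 and LDHA and overlap in HK1, PFKP, GAPDH and PGK1.

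The first step was carried by hexokinase genes that behaved unlike each other. HK1, the hexokinase that most tissues express at all times, had 213, 237 and 277 CPM in lesion pools 1, 2 and 3, against 244, 251 and 222 CPM in lesion-free pools 4, 5 and 6. The groups overlapped fully, with means of 242 ± 32.3 CPM in lesion and 239 ± 15.6 CPM in lesion-free pools (n = 3 each, SD). The log2 fold was 0.01 (SE 0.25, adjusted p = 0.993), with a 95% interval from -0.52 to 0.54. HK1 was also among the steadiest genes, with a 1.301-fold range over the 6 pools, where the median gene tested ranged over 3.14-fold and 0.994% of genes had a range as small.

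HK2, the hexokinase of muscle and other insulin-responsive tissue, had 19.1, 13.8 and 12.1 CPM in the lesion pools, against 0.108, 4.56 and 3.66 CPM in the lesion-free pools. These rest on 99, 154 and 132 counts in the lesion pools and on 1, 38 and 36 counts in the lesion-free pools. All lesion pools were above all lesion-free pools, and lesion-free pool 4 stood far below its own group. The means were 14.96 ± 3.65 CPM in lesion pools and, in lesion-free pools, 2.78 ± 2.35 CPM (n = 3 each, SD), a ratio of 5.39. The fitted log2 fold was 3.35 (SE 1.11, 95% interval 0.99 to 5.71), and it did not pass (adjusted p = 0.242). The single count in lesion-free pool 4 decided its size, for the log2 fold was 1.78 without that pool (adjusted p = 0.426, with a range of 0.137 to 0.559 over 11 other settings).

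The phosphofructokinase genes also parted. PFKL, the liver-type subunit, had 32.9, 48.2 and 47.0 CPM in lesion pools 1, 2 and 3, against 16.5, 19.4 and 26.8 CPM in lesion-free pools 4, 5 and 6. Every lesion pool was above every lesion-free pool, and lesion pool 1 was the lowest of its group. The means were 42.7 ± 8.48 CPM in lesion and 20.9 ± 5.28 CPM in lesion-free pools (n = 3 each, SD), and the log2 fold was 1.07 (SE 0.34, 95% interval 0.35 to 1.79, adjusted p = 0.212). Its adjusted p was the lowest of the 8 enzymes.

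PFKP, the platelet-type subunit, had 71.6, 102 and 96.8 CPM in the lesion pools, against 81.1, 161 and 144 CPM in the lesion-free pools. Lesion-free pools 5 and 6 were the highest, and lesion-free pool 4 lay among the lesion pools, so the groups overlapped. The means were 90.2 ± 16.3 CPM in lesion pools and 129 ± 42.1 CPM in lesion-free pools (n = 3 each, SD). The log2 fold was -0.45 (SE 0.31, 95% interval -1.10 to 0.20, adjusted p = 0.632). It was -0.26 without lesion-free pool 5 and -0.75 without lesion-free pool 4.

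GAPDH and PGK1 follow each other in the lower pathway. GAPDH, which oxidises glyceraldehyde 3-phosphate and is often used as a reference gene, had 658, 509 and 1274 CPM in lesion pools 1, 2 and 3, against 1604, 868 and 893 CPM in lesion-free pools 4, 5 and 6. Lesion pool 3 and lesion-free pool 4 stood above the rest of their groups, and the groups overlapped. The means were 814 ± 405 CPM in lesion and 1122 ± 418 CPM in lesion-free pools (n = 3 each, SD), and the range over the 6 pools was 3.15-fold. GAPDH is known for many processed copies in mammalian genomes, so its count may be divided among like sequences. The log2 fold was -0.52 (SE 0.36, 95% interval -1.29 to 0.25, adjusted p = 0.637). It moved to -0.89 without lesion pool 3, -0.24 without lesion pool 2 and -0.23 without lesion-free pool 4.

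PGK1, phosphoglycerate kinase, which makes the first ATP of the lower pathway, had 282, 194 and 229.9 CPM in the lesion pools, against 224, 172 and 177 CPM in the lesion-free pools. Lesion pool 2 lay below lesion-free pool 4, so the groups overlapped. The means were 235 ± 44.1 CPM in lesion and 191 ± 28.6 CPM in lesion-free pools (n = 3 each, SD). The log2 fold was 0.29 (SE 0.26, 95% interval -0.27 to 0.85, adjusted p = 0.722).

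ENO1, the widely expressed enolase, had 249.9, 304 and 301 CPM in lesion pools 1, 2 and 3, against 177, 243 and 216 CPM in lesion-free pools 4, 5 and 6. The lesion pools were all above the lesion-free pools, though lesion pool 1 exceeded lesion-free pool 5 by little. The means were 285 ± 30.4 CPM in lesion and 212 ± 33.3 CPM in lesion-free pools (n = 3 each, SD). The log2 fold was 0.43 (SE 0.26, 95% interval -0.11 to 0.98, adjusted p = 0.577).

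The level of ENO1 was uncertain in a further way. The isoform table gives the name ENO1-201 to 3 transcripts. The counts of one equal those of the ENO1 entry in every pool, and the counts of the other 2 sum in every pool to those of a single unnamed gene entry, ENSSSCG00000003396. That entry held 745, 2536 and 1841 counts in lesion pools 1, 2 and 3, against 1129, 1837 and 2372 counts in lesion-free pools 4, 5 and 6. RSEM, named in the submitters' processing notes with no role given, divides reads among like sequences by estimation, so the split between the entries may be uncertain. The sequences of the entries were not compared. Summed, the entries had 393, 531 and 469 CPM in the lesion pools, against 299, 463 and 457 CPM in the lesion-free pools. In the sum the groups overlapped, since lesion pool 1 lay below lesion-free pools 5 and 6, and the log2 fold was 0.21 (SE 0.28, adjusted p = 0.826). This sum was formed after the data were seen.

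LDHA, the lactate dehydrogenase subunit of glycolytic tissues, closes the pathway. It had 298, 169 and 253 CPM in lesion pools 1, 2 and 3, against 151, 163 and 157 CPM in lesion-free pools 4, 5 and 6. The lesion pools were all above the lesion-free pools, which lay close together, while lesion pool 2 was barely higher than the highest of them. The means were 240.2 ± 65.3 CPM in lesion and 157 ± 5.70 CPM in lesion-free pools (n = 3 each, SD), and the log2 fold was 0.58 (SE 0.27, 95% interval -0.00 to 1.16, adjusted p = 0.472).

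**Figure D2:**
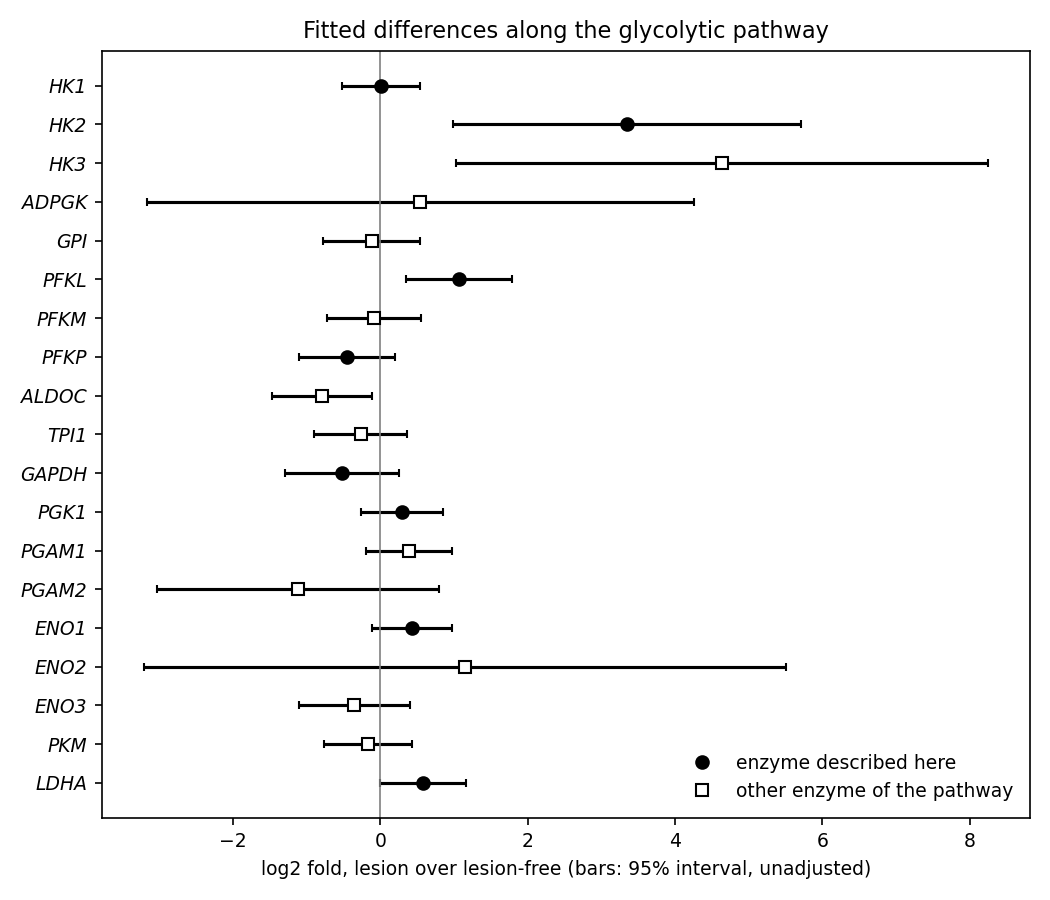
Fitted log2 fold, lesion over lesion-free (horizontal axis), of tested enzymes in pathway order from hexokinase at the top to lactate dehydrogenase at the bottom. Filled circles are the 8 enzymes described, open squares other tested enzymes and bars unadjusted 95% intervals, and the intervals of HK2, HK3 and PFKL lie above 0 and that of ALDOC below 0, and none of these passed adjustment over all genes.

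The summed level of the enzymes did not separate the groups. It was 1824, 1578 and 2489.8 CPM in lesion pools 1, 2 and 3, against 2498, 1883 and 1839 CPM in lesion-free pools 4, 5 and 6. GAPDH gave the largest single part of this sum in each pool. As shares of all counts the enzymes took 0.176% to 0.238% in lesion pools and 0.183% to 0.214% in lesion-free pools.

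Ratios of isozymes within a pool do not depend on how the libraries are scaled, so they compare enzymes of the same step directly. Of 8 chosen pairs 5 could be formed, and in 4 of these the groups did not overlap. In the other 3 pairs at least one gene had no entry under its symbol. A share of 0.1 of the 20 arrangements of 3 pools against 3 gives no overlap, and the share over all gene pairs was not computed. The 4 are not separate results, since PFKL enters PFKP/PFKL and PFKM/PFKL, and HK1 enters HK2/HK1 and HK3/HK1. HK2, HK3 and PFKL were each higher in every lesion pool on their own, so the ratios partly repeat the gene values.

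**Figure D3:**
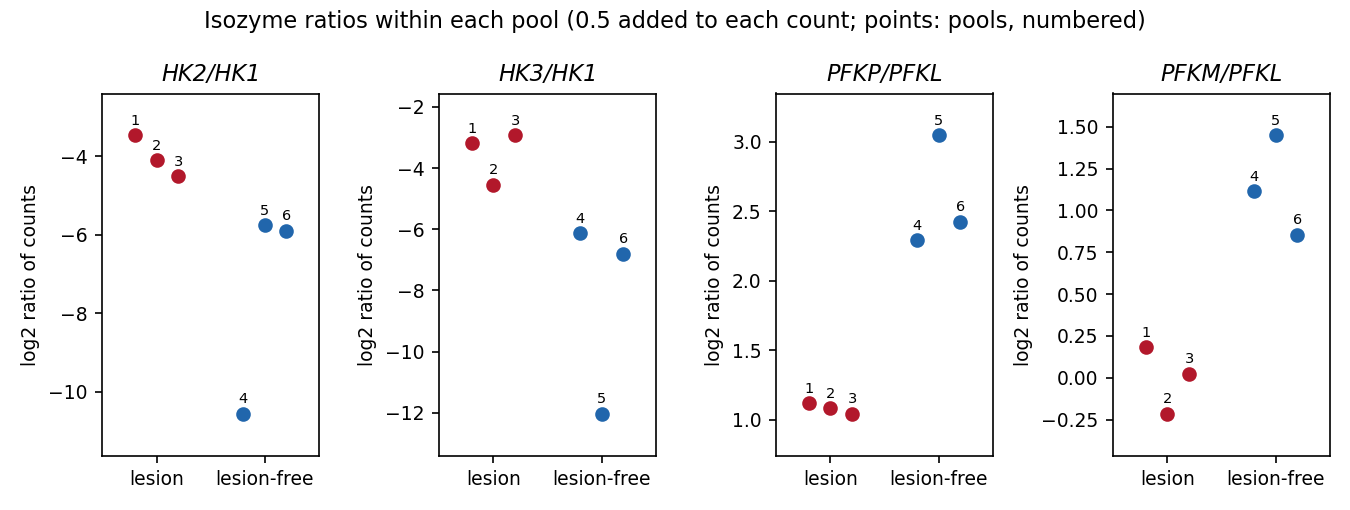
Log2 ratio of the counts of isozyme genes (vertical axes, 0.5 added to each count) in numbered lesion and lesion-free pools. The PFKP/PFKL ratio lies between 1.042 and 1.119 in lesion pools and between 2.29 and 3.05 in lesion-free pools.

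The PFKP/PFKL pair was the tightest within the lesion group. The ratio of PFKP to PFKL counts was 2.18, 2.12 and 2.06 in lesion pools 1, 2 and 3, against 4.91, 8.29 and 5.38 in lesion-free pools 4, 5 and 6. On the log2 scale, with 0.5 added to each count, the means were 1.08 ± 0.04 in lesion pools and 2.59 ± 0.40 in lesion-free pools (n = 3 each, SD), a difference of -1.51. The exact two-sided permutation test over pools gave p = 0.1, which is the smallest p that the 20 arrangements of 3 against 3 allow, and 0.125 after adjustment over the 5 pairs, so no pair could pass 0.05. PFKM, the muscle-type subunit, stood to PFKL at 1.13, 0.861 and 1.02 counts in the lesion pools, against 2.17, 2.73 and 1.81 in the lesion-free pools, again without overlap. That difference was -1.14 on the log2 scale, with an exact permutation p = 0.1 (adjusted 0.125). PFKM itself had a log2 fold of -0.08 (adjusted p = 0.941). These are ratios of counts and not of molecules, since the genes differ in length.

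Both hexokinase pairs separated as well, on low counts. The log2 ratio of HK2 to HK1 was -3.47, -4.10 and -4.51 in lesion pools 1, 2 and 3, against -10.56, -5.77 and -5.90 in lesion-free pools 4, 5 and 6. The difference was 3.38 (exact permutation p = 0.1, adjusted 0.125), and 1.80 without lesion-free pool 4. HK3, a hexokinase known from blood and myeloid cells, stood to HK1 at log2 ratios of -3.18, -4.55 and -2.93 in lesion pools, against -6.12, -12.03 and -6.80 in lesion-free pools, a difference of 4.77 (exact permutation p = 0.1, adjusted 0.125). The lowest of these ratios comes from lesion-free pool 5, where HK3 had no count, and the difference was 2.91 without that pool. Of ENO2 (the neuronal enolase) to ENO1 the ratio overlapped between groups, with a difference of 0.21 (exact permutation p = 0.7, adjusted 0.7).

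The isoform table did not add a called difference. It named 21 isoforms for these genes, of which 15 had a count and 13 were tested among 12666 isoforms. Of the 13, 0 passed an adjusted p of 0.05 in limma, where 0.418% of all isoforms tested were called higher and 0.0316% lower, and 2 were higher and 0 lower at an unadjusted p under 0.05, against 5.33% and 3.47% of all isoforms tested. Those 2, HK2-201 and PFKL-201, hold the same counts as their genes and so repeat the gene results. HK1, HK2, PFKL, GAPDH and LDHA each had a single isoform with counts. PFKP-201 took 86.3%, 79.3% and 80.3% of PFKP counts in lesion pools 1, 2 and 3, against 87.1%, 80.5% and 80.1% in lesion-free pools 4, 5 and 6, so its share overlapped between groups. PGK1-001 took 98.8%, 98.6% and 87.1% of PGK1 counts in the lesion pools, against 59.6%, 92.0% and 91.2% in the lesion-free pools. Lesion-free pool 4 stood apart there, and the groups overlapped. The ENO1-201 transcripts of the unnamed entry traded places between pools. Transcript ENSSSCT00000003767 had 142 CPM in lesion pool 1 and 0 CPM in lesion-free pool 5, and ENSSSCT00000024230 had 0 CPM in lesion pool 1 and 219.6 CPM in lesion-free pool 5.

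The other genes of the pathway gave no called change either. Of 18 further glycolytic enzymes 12 were tested and 0 were called in either direction, with a median log2 fold of -0.14, and at an unadjusted p under 0.05 there was 1 higher (HK3) and 1 lower (ALDOC). HK3 had 23.3, 10.1 and 36.3 CPM in lesion pools 1, 2 and 3, against 3.45, 0 and 1.93 CPM in lesion-free pools 4, 5 and 6. All lesion pools were above all lesion-free pools, and the fitted log2 fold was 4.63 (SE 1.68, adjusted p = 0.312), or 2.94 without lesion-free pool 5, where HK3 had no count. ALDOC, the brain-type aldolase, had 41.2, 42.7 and 45.0 CPM in the lesion pools, against 109, 52.4 and 72.5 CPM in the lesion-free pools. The lesion pools were close together and all below the lesion-free pools, with a log2 fold of -0.79 (SE 0.32, adjusted p = 0.374). PGAM2, the muscle phosphoglycerate mutase, had 1.92, 1.88 and 2.10 CPM in lesion pools and 6.48, 3.72 and 3.36 CPM in lesion-free pools, also without overlap (log2 fold -1.11, adjusted p = 0.696). PGAM1, the mutase of most tissues, named after its values were seen, had 76.4, 72.7 and 75.3 CPM in lesion pools 1, 2 and 3, against 48.2, 53.4 and 70.6 CPM in lesion-free pools 4, 5 and 6. Every lesion pool was above every lesion-free pool, with a log2 fold of 0.39 (adjusted p = 0.633). The groups overlapped in ENO2 (log2 fold 1.15) and in ENO3, the muscle enolase (-0.35). They overlapped too in PKM, the pyruvate kinase of most tissues, with 880, 834 and 1372 CPM in lesion pools and 1266, 1019 and 1105 CPM in lesion-free pools (log2 fold -0.17, adjusted p = 0.867). PKM was named after its values were seen.

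Among glucose and lactate carriers, 11 entries of 10 symbols were tested and 0 were called, with a median log2 fold of 0.29. SLC2A4, the insulin-responsive glucose transporter, had 9.43, 25.6 and 17.9 CPM in lesion pools 1, 2 and 3, against 53.0, 30.9 and 28.2 CPM in lesion-free pools 4, 5 and 6. Every lesion pool was below every lesion-free pool, and the log2 fold was -1.01 (adjusted p = 0.390). A further SLC2A4 entry, which was not tested, had 26 counts (2.32 CPM) in lesion pool 2 and 0 in every other pool. It is not part of these values. SLC2A6, a lysosomal carrier of the same family, had 3.08, 5.27 and 7.31 CPM in the lesion pools, against 0.540, 0 and 0.610 CPM in the lesion-free pools (log2 fold 4.22, adjusted p = 0.376). The groups did not overlap, though the lesion-free values rest on few counts. SLC16A7 and SLC16A3, monocarboxylate carriers named after their values were seen, had log2 folds of 1.498 (adjusted p = 0.408) and 1.68 (adjusted p = 0.538). The groups overlapped in SLC16A3 and not in SLC16A7. SLC2A13, an inositol carrier, had 2 tested entries, and the groups overlapped in both. The entry that bears the symbol had a log2 fold of 0.29, and the entry matched by identifier, with 0 counts in lesion-free pools 4 and 5, had 3.02, which was 1.75 without lesion-free pool 4 and 5.11 without lesion-free pool 6. The groups overlapped too in SLC16A1, a lactate carrier (-0.41).

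The 6 lists around glycolysis held no called gene. Of their 52 tested entries, 3 had every lesion pool above and 5 every lesion pool below the lesion-free pools. These were 5.77% and 9.62%, against 10.5% and 8.97% of all genes tested. Of 9 regulators tested the median log2 fold was -0.05. PDK2, a kinase that switches off pyruvate dehydrogenase, had 31.2, 86.8 and 120.1 CPM in lesion pools 1, 2 and 3, against 154, 141 and 141 CPM in lesion-free pools 4, 5 and 6. All lesion pools were below the lesion-free pools, lesion pool 1 by far, and the log2 fold was -0.99 (adjusted p = 0.367), or -0.51 without lesion pool 1. The bifunctional enzymes that set fructose 2,6-bisphosphate all overlapped between groups, with log2 folds of 2.15 for PFKFB2, 0.39 for PFKFB3 and -1.49 for PFKFB4. PFKFB4 was -0.43 without lesion pool 1, and PFKFB2 was 1.08 without lesion pool 3 and 3.85 without lesion-free pool 6. PFKFB2 (SE 2.26) rested on 0, 11 and 26 counts in the lesion pools, against 0, 0 and 19 in the lesion-free pools. In the 8 tested entries for the entry of pyruvate into mitochondria the median was -0.02, with -0.44 and 0.21 for the 2 entries of CS (citrate synthase), -0.16 for PDHB and 0.18 for DLD (subunits of pyruvate dehydrogenase). In the 6 tested genes of the pentose phosphate pathway it was 0.06, with 0.51 for PGLS, 0.45 for RPIA and -0.10 for TALDO1.

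Of 11 tested genes of glycogen and gluconeogenesis the median log2 fold was 0.08 and 0 were called. PCK2, the mitochondrial enzyme that makes phosphoenolpyruvate, had 18.7, 15.6 and 13.9 CPM in lesion pools 1, 2 and 3, against 4.53, 8.99 and 5.59 CPM in lesion-free pools 4, 5 and 6. Its groups did not overlap (log2 fold 1.36, adjusted p = 0.296). PYGM, muscle glycogen phosphorylase, was lower in every lesion pool (log2 fold -0.66, adjusted p = 0.387), and the groups overlapped in PC, pyruvate carboxylase (-1.62), and GBE1, the glycogen branching enzyme (0.64). PC had 1 count in lesion pool 1, and its log2 fold was -0.70 without that pool and -2.60 without lesion pool 3.

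Of the 4 tested genes of the serine and glycerol branches 0 were called, and the median log2 fold was -1.01, with 3 of the 4 at low levels. PHGDH, which draws 3-phosphoglycerate into serine synthesis, had 40.0, 29.2 and 43.8 CPM in lesion pools 1, 2 and 3, against 88.2, 60.2 and 88.1 CPM in lesion-free pools 4, 5 and 6. Every lesion pool lay below every lesion-free pool, and the log2 fold was -1.08 (SE 0.30, adjusted p = 0.145). The adjusted p of PHGDH was 0.0392 when pools were weighted by quality, and up to 0.411 over the other settings. The other 3 were PSPH (-0.93) and PSAT1 (-0.75), the later enzymes of that branch, and GPD1, glycerol 3-phosphate dehydrogenase (-2.05), all at a few CPM or less. PSPH was -0.14 without lesion pool 1, where it had 1 count, and GPD1 was -0.58 without lesion pool 3 and -3.67 without lesion-free pool 5. Of 14 tested genes of the hypoxia response, many of them known targets of the same factor as glycolytic genes, 0 were called and the median was 0.17. NDRG1, a stress-response gene, was higher in every lesion pool, with 65.1, 59.5 and 100.5 CPM in lesion pools and 44.7, 41.9 and 55.8 CPM in lesion-free pools (log2 fold 0.64, adjusted p = 0.472). The groups overlapped in CA9, a carbonic anhydrase (1.75), EPAS1, a hypoxia-inducible factor (-0.48), and VEGFA, a vascular growth factor (-0.12).

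**Figure D4:**
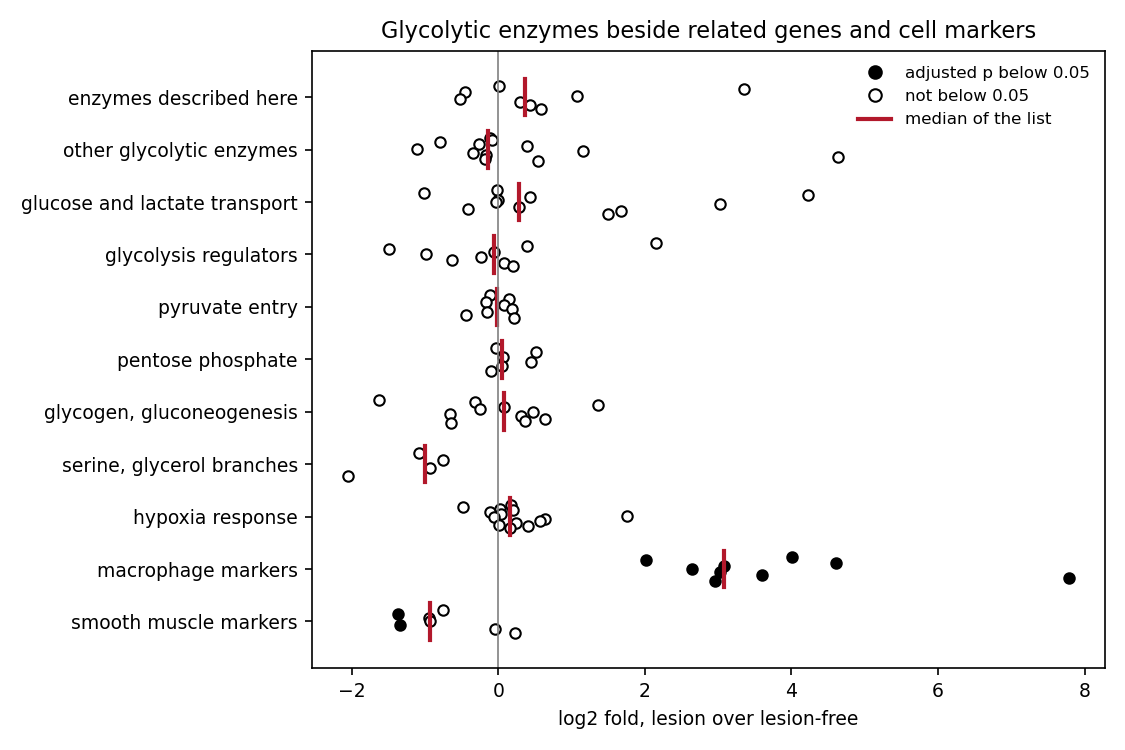
Fitted log2 fold, lesion over lesion-free (horizontal axis), of each tested gene in the lists around glycolysis and in macrophage and smooth muscle markers, with filled points for an adjusted p below 0.05 and red lines for medians. The filled points are 9 macrophage markers above 0 and 2 smooth muscle markers below 0, and no gene of glycolysis or its neighbouring lists is filled.

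All calls among the listed genes fell in the lists of cell type markers. Of 9 tested macrophage markers 9 were called higher in lesion pools, with a median log2 fold of 3.08 and a summed level of 1396 to 3145 CPM in lesion pools and 155 to 282 CPM in lesion-free pools, while CD163 was at or near 0 in all pools. Of 7 tested smooth muscle markers 0 were called higher and 2 lower (CNN1, a calponin, and DES, desmin), with a median of -0.93. ACTA2, TAGLN and SMTN were also lower in every lesion pool, while the groups overlapped in MYLK (log2 fold -0.05) and CALD1 (0.23). Of 5 endothelial markers 0 were called. The summed level of the list was 316 to 389 CPM in lesion pools and 209 to 219 CPM in lesion-free pools. Most of it was PECAM1, with 264, 334 and 279 CPM in lesion pools and 185, 175 and 153 CPM in lesion-free pools. PECAM1 and TEK were higher in every lesion pool, and the groups overlapped in VWF, KDR and CLDN5. Of 5 fibroblast markers 0 were called, with sums of 1146 to 1342 CPM in lesion pools and 1277 to 1917 CPM in lesion-free pools. They differed in direction, for LUM and PDGFRA were higher and DCN lower in every lesion pool, and PI16 and DPT overlapped. ACTA1, the skeletal actin gene and the only tested skeletal muscle marker, was called lower, and 0 of the tested T cell, adipocyte, red cell and nerve markers were called. MYH1, a skeletal muscle marker that was not tested, had 0, 48 and 37 counts in the lesion pools. In the lesion-free pools it had 0, 0 and 8 counts, so the skeletal muscle list did not move in 1 direction. The part of cell makeup in the values of HK2, HK3, PFKL and LDHA was not tested.

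The genes most like the mean profile of the enzymes over the 6 pools were ranked by Pearson's r. The profile was the mean of the 8 centred log2 profiles, and 6844 named genes of at least 10 CPM on average were compared. Among the 5 highest were DOCK8, an exchange factor of blood cells (r = 0.988), NOX4, an NADPH oxidase of the vessel wall (0.986), COG6, a Golgi tethering subunit (0.986), and CLINT1, a clathrin adaptor (0.985). The mean profile was 0.27, 0.18 and 0.44 in lesion pools 1, 2 and 3, against -0.73, -0.06 and -0.10 in lesion-free pools 4, 5 and 6. HK2, centred at -4.81 in lesion-free pool 4 on a single count, weighed most in this profile, since the profiles were not scaled to equal spread. In that pool HK1, GAPDH and PGK1 lay above 0, GAPDH at 0.83. The order thus rests largely on HK2, describes these 6 pools and carries no test.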

How the data were processed

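Total RNA of pooled abdominal aorta was sequenced as stranded total RNA libraries, per the labels' protocols. The deposited gene and isoform tables hold whole-number counts per pool, written with commas between digit groups. RSEM 1.3.0 and edgeR are named in the submitters' processing notes, with no role given. No source used here names the genome build or aligner, so no coordinates are printed.

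Commas were removed. Genes with 1 CPM (10 counts in a median library) in at least 3 pools and at least 15 counts in all were tested: 11673 of 22861. Libraries were scaled by TMM (30% and 5% trimmed), and log2 CPM with 0.5 added per count were fitted with limma 3.58.1 (voom, robust empirical Bayes) in R 4.3.3, two-sided, with Benjamini-Hochberg adjustment at 0.05. The test was run on simulated data first. The 95% intervals come from the standard errors of the limma fit to the pools, and the floor of 3 counts reflects counting alone. Counts of every pair of pools within a group differed by more than sampling noise (chi-square over its degrees of freedom 20.7 to 86.9), so all 6 pools were kept as separate samples.

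Named genes were the listed enzymes, the called genes of each list, the 2 highest and 2 lowest tested log2 folds of each list, isozymes of the enzymes, and the 5 most alike genes, of which a few are not reported here. The enzymes and lists were chosen with earlier results of these data known. Alternatives were median-of-ratios scaling, library totals, no filter, limma-trend, quality weights and leaving out each pool. Summing ENO1 with the unnamed entry was chosen after seeing the data.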

Additional observations from a re-analysis of the deposited data

How the results depend on the processing

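Under all 11 other settings 0 of the 8 enzymes passed an adjusted p of 0.05, and of the enzymes' folds that of HK1 alone changed sign, with a range from -0.089 to 0.10 when single pools were left out. Genes called higher numbered 113, against 171 with no filter, 213 with quality weights and 54 to 150 with a pool left out (63 without lesion-free pool 5 and 54 without lesion-free pool 6), and genes called lower 9, against 17, 40 and 3 to 36 under the same settings (5 without lesion pool 1, 36 without lesion pool 3, and 15, 4 and 3 without lesion-free pools 4, 5 and 6). Library totals moved the median log2 fold of all genes by 0.17, and with them VEGFA had 0.064, PKM 0.0054, PFKM 0.090 and TALDO1 0.061, each with its sign turned. Quality weights turned PFKFB3 (-0.0052). Leaving out single pools gave ranges that cross 0 for PFKFB3 (-0.080 to 0.63), VEGFA (-0.54 to 0.22), CA9 (-0.026 to 2.81), ENO3 (-0.59 to 0.0081), PFKM (-0.25 to 0.025), ENO2 (-0.36 to 2.20), TALDO1 (-0.18 to 0.030), PDHB (-0.33 to 0.030), DLD (-0.00057 to 0.38), the CS entry with a main value of 0.21 (-0.054 to 0.46), PSAT1 (-1.80 to 0.28) and the ENO2/ENO1 ratio (-1.21 to 1.58). Without a crossing of 0, the ranges were -0.71 to -0.19 for SLC16A1, 0.44 to 1.00 for GBE1, 0.17 to 0.68 for RPIA, -0.63 to -0.26 for EPAS1 and 0.39 to 0.80 for NDRG1. The PFKP/PFKL difference stayed between -1.65 and -1.28, PFKM/PFKL between -1.28 and -0.99, HK2/HK1 between 1.80 and 4.20 and HK3/HK1 between 2.91 and 5.87. The causes were not tested. The adjusted p of PFKL ran from 0.0581 to 0.568 over these settings. No paired analysis was made, because the groups came from different swine (WMS FH and WMS normal) and the labels give no pairing of pools. Lesion pool 1 is the shallowest library, HK2, HK3 and SLC2A6 rest on few counts in lesion-free pools, and PFKFB2 rests on few counts in both groups.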

Other observations

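GAPDH is often used to normalise other genes, so the enzymes were also set against it within each pool, a choice made after the data were seen and given without a test. Relative to GAPDH, lesion minus lesion-free on the log2 scale, HK2 differed by 3.91, PFKL by 1.55, LDHA by 1.09, ENO1 by 0.95, PGK1 by 0.81, HK1 by 0.53 and PFKP by 0.05. GAPDH had a log2 fold of -0.52, which enters each of these differences with its sign turned. GAPDH itself ranged over 3.15-fold in the 6 pools and HK1 over 1.301-fold.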
